A study of Mus musculus with 8 samples.

Results

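The 323 probe sets described here had a higher signal in miR-223 null cells than in wild-type cells on both days of a neutrophil culture. They were chosen from 22514 non-control probe sets whose mean log2 signal over all 8 arrays was at least 5.51. On each day the lowest null array had to exceed the highest wild-type array by at least 0.15 on the log2 scale, and 6 probe sets named in the rule were left out, of which none met both gaps. The gap between genotypes therefore chose the members, so it is given below as values with no test. A probe set is a group of short probes on an Affymetrix array that together give 1 signal for a transcript.

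The cells were bone marrow progenitors of wild-type mice and of mice lacking miR-223, grown in SILAC-IMDM, a culture medium, and each combination of genotype and day had 2 arrays. Day 4 cells received G-CSF, the growth factor of granulocytes, together with SCF, which binds the receptor c-Kit, for 4 days. The sort kept cells that carried c-Kit and lacked Gr-1, the surface pattern of progenitors. Day 8 cells received both factors for 6 days and then no SCF for 42 hours. Their sort kept cells that lacked c-Kit and carried Gr-1, the pattern of mature neutrophils. Both genotypes had the same culture and sort. The labels give no strain, sex or age, do not say how the null allele was made, and do not say whether the 2 arrays of a group came from separate animals. The p-values below therefore measure the spread between arrays, which may be technical.

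MicroRNAs are short RNAs that guide Argonaute proteins to messenger RNAs, mostly through pairing of the seed (bases 2 to 8) with sites in the 3' untranslated region. The paired messenger RNA is then less stable or less translated. miR-223 is a microRNA of myeloid cells and is abundant in neutrophils, and it is known as a modulator of the formation and the inflammatory activity of these cells. The hairpin that gives rise to it lies on the X chromosome at chrX:96242817-96242926 on the plus strand (GRCm38.p6, RefSeq). Its mature arms are shown because they are what the null cells lack by their label, with the seed in capitals.
mmu-miR-223-3p: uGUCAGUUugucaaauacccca
mmu-miR-223-5p: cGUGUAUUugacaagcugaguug
The letters that pair with the 3p seed are AACUGAC, and with the 5p seed AAUACAC. Among 1679 mature mouse microRNA names in the RefSeq table, 1 had the 3p seed and 1 had the 5p seed, in each case the arm itself.

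The files do not pair probe set identifiers with genes, and 0 of the 323 members were found in the gene reference at hand. Members are therefore given by identifier. No transcript sequence was used here, so no member was searched for a seed site, and the identity of the sorted cells could not be checked with marker genes. Whether the null cells lacked miR-223 could not be verified here. Across the tested probe sets the 2 arrays of a group correlated at r = 0.993 to 0.997. The median signal of the 8 arrays lay between 5.44 and 5.50.

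The members were 1.43% of the probe sets tested. The gap was met on day 4 by 1018 probe sets (4.52%) and on day 8 by 2525 (11.2%), so the members made up 31.7% of the first set and 12.8% of the second. In the opposite direction, with null below wild type by the same gap on both days, there were 231 (1.03%). Since the rule used these values, nothing is read from the shares. Just inside the threshold lay 1424695_AT and 1428331_AT, whose smaller gap was 0.15 and 0.1505. Just outside lay 1453634_A_AT and 1433582_AT, with 0.1498 and 0.1497.

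Most members differed by little between genotypes. On day 4 the difference of null and wild-type means ranged from 0.16 to 6.91 on the log2 scale, with a median of 0.39 (1.31-fold) and quartiles of 0.30 and 0.49. On day 8 it ranged from 0.21 to 7.87, with a median of 0.52 (1.43-fold) and quartiles of 0.38 and 0.72. The medians over all tested probe sets were -0.01 and 0.02. A difference of 2-fold or more was seen for 8 members on day 4, for 33 on day 8 and for 5 on both days. Under 1.5-fold were 286 members on day 4 and 189 on day 8. The gap was larger than the distance between the replicates of either genotype for 241 of the 323 members on day 4 and for 272 on day 8.

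The difference was larger on day 8 than on day 4 for 237 members (73.4%) and larger on day 4 for 86. Among all tested probe sets the null-minus-wild-type difference was higher on day 8 for 56.2%. In 188 members the log2 differences of the 2 days lay within 0.2 of each other. In 31 the day 8 difference exceeded that of day 4 by more than 0.5, and in 0 the reverse held. The difference between the days is made of the same gaps that chose the members and was not tested.

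One member stood far from the others. 1427451_A_AT had log2 signals of 4.61 and 3.85 on the wild-type day 4 arrays and of 11.12 and 11.16 on the null day 4 arrays. On day 8 it had 4.41 and 4.19 in wild type and 12.08 and 12.26 in null. It was thus near the lower end of the signal range on all 4 wild-type arrays and among the bright probe sets on all 4 null arrays. The size of this difference depends on the background correction of the dim arrays, which the sources used here do not give. The next largest difference shared by both days was that of 1427820_AT. Its wild-type arrays read 9.51 and 8.58 on day 4 and 7.41 and 6.61 on day 8. Its null arrays read 11.25 and 11.69 on day 4 and 9.06 and 9.36 on day 8. The differences of means were 2.42 and 2.20, or 5.36-fold and 4.60-fold, with a signal clearly above 5.51 on all 8 arrays.

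The next were chosen for the largest excess of the day 8 difference over that of day 4. 1431249_AT read 5.86 and 5.53 in wild type and 6.57 and 6.65 in null on day 4, a difference of 0.92. On day 8 it read 5.37 and 5.32 in wild type and 7.84 and 8.40 in null, a difference of 2.78. Its wild-type arrays stayed near the filter value while its null arrays moved up. 1417818_AT read 4.04 on both wild-type arrays and 4.80 and 4.59 on the null arrays on day 4, a difference of 0.65 at a level below the filter value. On day 8 it read 6.06 and 6.25 in wild type and 8.26 on both null arrays, a difference of 2.10. Here the signal was higher on day 8 in both genotypes, by more in null.

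The opposite order was seen for 1451345_AT and 1426607_AT, which had the largest excess of the day 4 difference. 1451345_AT read 8.85 and 9.43 in wild type and 9.93 and 9.97 in null on day 4, a difference of 0.81. On day 8 it read 5.55 and 5.42 against 5.83 and 5.81, a difference of 0.33. 1426607_AT differed by 1.09 on day 4, with 6.58 and 6.52 in wild type against 7.42 and 7.87 in null. It differed by 0.71 on day 8, with 3.99 and 3.43 against 4.43 and 4.42. Both had fallen to near or below the filter value by day 8, where differences depend most on the background correction.

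The members covered nearly the whole range of signal above the filter. Their mean over all arrays ranged from 5.51 to 12.72 with a median of 8.29, against 7.85 for all tested probe sets, and 80.5% of members had a mean of at least 7, against 65.9%. The brightest was 1417868_A_AT, which read 12.48 and 12.70 in wild type and 13.02 and 13.04 in null on day 4, and 12.37 and 12.28 against 12.90 and 12.96 on day 8. It was followed by 1434437_X_AT, with a mean of 12.36. At the dim end, 14 members had a wild-type day 4 mean below 5.51 and 30 a wild-type day 8 mean below it. The null mean of the same day was at or above 5.51 for 9 of the 14 and for 18 of the 30. Only 1427451_A_AT and 1432205_A_AT had a wild-type mean below 5.51 on both days.

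The identifiers tell how specific the probes are. Most members, 230 or 71.2%, ended in _AT, the ending of probe sets designed for 1 transcript, as did 72.6% of the tested probe sets. The ending _A_AT, for probes shared by transcripts of the same gene, was carried by 49 members (15.2%, against 14.3%). The ending _S_AT, for probes shared by several transcripts, was carried by 27 (8.36%, against 6.56%). The ending _X_AT, for sets in which some probes may bind unrelated transcripts, was carried by 17 (5.26%, against 6.56%). Except for the ending _AT, the signal cannot be assigned to a single transcript.

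Some members had consecutive identifier numbers. Of 462 tested probe sets numbered directly before or after a member (those next to 2 members counted for each), 50 (10.8%) were members themselves, against 1.43% of all tested. In all, 46 members fell into 21 runs, 17 of length 2 and 4 of length 3. Whether the probe sets of a run measure the same transcript is not given in the files. Counting each run once leaves 298 entries, so the number of transcripts may be smaller than 323.

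Within a run the genotype differences lay close together in some cases and not in others. The null-minus-wild-type differences of a run lay within 0.2 of each other in 16 of the 21 runs on day 4. They did so in 12 on day 8 and in 10 on both days. Over all members the quartiles were 0.30 and 0.49 on day 4, and 0.38 and 0.72 on day 8. The same count was not made for members outside runs, so likeness within runs is not read from these counts. In 1452654_AT, 1452655_AT and 1452656_AT the null-minus-wild-type difference was 0.62, 0.51 and 0.68 on day 4. It was 1.09, 0.83 and 1.10 on day 8, although their mean levels ranged from 6.04 to 7.68. In 1450384_AT, 1450385_AT and 1450386_AT it was 0.49, 0.59 and 0.48 on day 4 and 0.43, 0.69 and 0.67 on day 8. In the run that starts with 1417868_A_AT, the day 4 differences were all between 0.43 and 0.44, and the day 8 differences were 0.60, 0.71 and 0.66. The run 1433486_AT, 1433487_AT and 1433488_X_AT was not alike: the last had a day 8 difference of 1.07, against 0.57 and 0.25 for the first and second. Among the runs of 2, 1448693_AT and 1448694_AT differed most on day 8, with 0.21 and 0.88, and 1421824_AT and 1421825_AT differed most on day 4, with 0.22 and 0.63. In 19 of the 21 runs every probe set changed in the same direction from day 4 to day 8 by its point estimate. Of all members, 63.2% were called lower and 28.2% higher over that time. Many runs would therefore share a direction in any case, and nothing is read from this count.

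The mean change of both genotypes from day 4 to day 8 does not contain the gap between them. The rule therefore did not use the size of this change from progenitor to mature neutrophil. It did favour probe sets with close replicates, and limma uses that spread to make its calls. The median standard deviation of null arrays was 0.042 for members and 0.058 for all tested on day 4, and 0.054 and 0.069 on day 8. For wild type it was 0.0921 and 0.0965 on day 4, and 0.0796 and 0.0762 on day 8. The shares called are therefore given as a description. More members fell than rose. From day 4 to day 8, as the mean of both genotypes, limma called 204 of the 323 members lower (63.2%), where 43.4% of all tested probe sets were called lower. It called 91 higher (28.2%), where the share over all tested was 40.4%, and 28 were not called at an adjusted p below 0.05. The median change was -0.52 on the log2 scale for members, with quartiles of -1.55 and 0.28, and -0.01 for all tested. Among the 260 members with a mean signal of at least 7, 64.2% were called lower, against 48.7% of all tested probe sets of that brightness.

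The larger falls were also more frequent among members. A fall of 2-fold or more was called for 123 members (38.1%, against 20.4% of all tested), of 4-fold or more for 49 (15.2%, against 6.65%) and of 8-fold or more for 13 (4.02%, against 1.82%). A rise of 2-fold or more was called for 39 members (12.1%, against 13.4%), of 4-fold or more for 12 (3.72%, against 4.16%) and of 8-fold or more for 7 (2.17%, against 1.45%). In bins of 0.5 on the log2 scale, changes from -2.0 to -1.5 held 11.1% of members and 5.41% of all tested probe sets, and changes from 0 to 0.5 held 13.0% and 23.6%. Members were thus spread over both directions, with a surplus on the falling side as a description of these counts. RNA integrity was read from the beta-actin controls, as the log2 signal at the 3' end minus that at the 5' end. This value was 0.36 to 0.44 in the day 4 samples and 0.10 to 0.17 in the day 8 samples. The same value for Gapdh was -0.08 to 0.05 in all samples. The part of RNA integrity in the change between the days was not tested. In these sorted cultures, fewer cells of a type and less RNA per cell cannot be told apart.

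The direction of such a broad change is relative to the scaling. When arrays were scaled to the hybridization controls, which are bacterial and phage RNAs added before hybridization, the median change of all tested probe sets moved from -0.01 to -0.27 and that of members from -0.52 to -0.78. Of all calls, 33.7% were then higher in place of 48.2% over all tested, and 22.2% in place of 30.8% among members. Members called lower were then 69.3%, against 51.8% of all tested. After quantile normalization they were 58.2%, against 39.5%.

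The calls within each genotype are given as a description, since the change within 1 genotype also contains part of the difference between the gaps of the days, which the rule used. In wild type limma called 202 members lower (62.5%) and 75 higher (23.2%), against 41.7% and 35.5% of all tested. In null it called 185 lower (57.3%) and 87 higher (26.9%), against 39.9% and 36.0%. There were 183 members called lower in both genotypes and 73 called higher in both. Called lower in wild type and higher in null was 1, and the reverse was 0. The same joint counts are not given for all tested probe sets, so nothing about the members is read from them. In null, higher calls were 32.0% of the members' calls as deposited and 21.7% when scaled to the hybridization controls. Over all tested probe sets they were 47.4% and 29.9% of the calls, so the share was lower there as well.

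The 204 members that fell had a median wild-type level of 8.76 on day 4 and 7.34 on day 8. Their median null-minus-wild-type difference was 0.40 on day 4 and 0.52 on day 8. The 91 that rose had median wild-type levels of 7.57 and 8.51, with differences of 0.36 and 0.54. The 28 without a call had differences of 0.36 and 0.46.

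The largest falls were 1451345_AT and 1422579_AT. 1451345_AT, whose arrays are given above, fell by 3.89 on the log2 scale (14.8-fold; limma, SE 0.11, adjusted p = 7.1e-11, 2 arrays per group). The change was -3.65 in wild type and -4.13 in null. 1422579_AT read 10.15 and 10.62 in wild type and 11.01 and 10.88 in null on day 4, and 6.43 and 6.72 against 7.49 and 7.32 on day 8. All 4 day 8 arrays lay far below all 4 day 4 arrays, and the change was -3.68 (12.8-fold; limma, SE 0.11, adjusted p = 6.7e-11).

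The largest rises were those of 1460197_A_AT and 1425829_A_AT. 1460197_A_AT read 5.28 and 5.26 in wild type and 5.59 and 5.72 in null on day 4, and 11.02 and 11.40 against 12.10 and 11.79 on day 8. It rose by 6.11 (69.3-fold; limma, SE 0.10, adjusted p = 1.8e-12), by 5.94 in wild type and 6.29 in null. 1425829_A_AT read 5.34 and 5.10 in wild type and 5.63 and 5.60 in null on day 4, and 9.72 and 10.13 against 11.10 and 10.57 on day 8. It rose by 4.96 (31.2-fold; limma, SE 0.13, adjusted p = 3e-11). Both started near the filter value, so the fold depends on the background correction there. The genotype differences of these members, 0.38 and 0.73 for the first and 0.40 and 0.91 for the second, were small beside their change over time.

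The 3 members with the largest difference shared by both days had unlike changes from day 4 to day 8 as the mean of both genotypes. 1427451_A_AT rose by 0.55 (limma, SE 0.14). The change was 1.03 in null and 0.07 in wild type, whose 4 arrays read 3.85 to 4.61, below the filter value. The mean of this probe set over all arrays passed the filter only through the null arrays. 1427820_AT fell by 2.15 (limma, SE 0.21, adjusted p = 1.9e-06). 1432205_A_AT, the third, read 5.16 and 4.65 in wild type and 6.74 and 6.33 in null on day 4. On day 8 it read 5.47 and 4.29 in wild type and 7.18 and 7.31 in null. Its null-minus-wild-type differences were 1.63 and 2.37, and its change from day 4 to day 8 was 0.34 (limma, SE 0.22). With wild-type means of 4.90 and 4.88, 1432205_A_AT also passed the filter only through its null arrays. No test is given for it or for 1427451_A_AT, since their means mix wild-type signal below the filter value with null signal. The wild-type change of 1427451_A_AT was 0.07 with all arrays, 0.45 when replicate 1 of wild-type day 4 was left out and -0.31 when replicate 2 was, so its direction rested on single arrays.

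The number of members depended on single arrays and on the rule's settings. Fewer arrays make the gap easier to meet, and the count also depended on which array was left out. Without wild-type day 4 replicate 2 the rule found 803 probe sets, against 414 without replicate 1 of that group. Without wild-type day 8 replicate 1 it found 497, against 381 without replicate 2. The reason for the unlike counts was not tested. Of the 323 members, 208 (64.4%) still met the rule after scaling to the hybridization controls. Quantile normalization kept 295 of them, equal medians kept 297 and cyclic loess kept 306.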

How the data were processed

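The table deposited by the authors holds log2 signals, a base inferred from their range, of 45101 Affymetrix probe sets (64 of them controls) on 8 arrays. The submitters' processing notes name GCOS, the Affymetrix scanner software, and for summarization, background and normalization the method is not stated there. The values were analysed as deposited. A model of the 4 group means was fitted to the 22514 probe sets with a mean of at least 5.51, using limma 3.58.1 in R 4.3.3 (lmFit, then eBayes with trend), with 4 residual degrees of freedom. Tests were two-sided, adjusted by Benjamini-Hochberg over all probe sets tested, and called at 0.05. With 2 arrays against 2 an exact permutation test cannot give a p below 0.333. The number of arrays limits the precision, and the median SE was 0.08 for the mean change of both genotypes and 0.12 for 1 genotype. The limma contrast for the mean change of both genotypes was run on simulated data with known changes between the days. The other steps were not tested in this way. The members and lists were chosen with earlier results of these data known. The gene lists, the rule for named genes, and the promoter and neighbouring-gene counts needed gene symbols, which no probe set had, and were not used. The identifiers named were the extremes of each comparison, up to 3 of each kind, and the runs, chosen after their values were seen. The alternatives were 4 normalizations, 2 filters, no trend, a replicate block, 2 gaps and each array left out in turn.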

Additional observations from a re-analysis of the deposited data

How the results depend on the processing

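The member counts called from day 4 to day 8 stayed within 1.5 times the main count in all 96 combinations of 6 counts and 16 alternatives. Over the alternatives that kept all arrays, lower calls ranged from 167 to 224 for the mean of both genotypes, 167 to 215 for wild type and 149 to 217 for null. With a mean of at least 7 required, 260 of the 323 members were left to test. The corresponding higher calls ranged over 64 to 102, 59 to 89 and 60 to 97. Calls over all tested probe sets moved too. For the mean of both genotypes, 39.5% of all tested were lower after quantile normalization and 51.8% when scaled to the hybridization controls. Among members these shares were 58.2% and 69.3%. The number of members was 1893 with a gap of 0, 85 with a gap of 0.30, and 381 to 803 when 1 array was left out, and it stayed within 1.5 times under the other alternatives. Replicate numbers are shared across groups. The deviations of same-numbered arrays correlated at -0.05 to 0.22 over the 6 pairs of groups. With 2 arrays per group, these correlations cannot decide whether the numbers pair the arrays. With the replicate number as a block, 92 members were called higher and 204 lower for the mean of both genotypes. The share over all tested is not given for the block, so these counts are a description. Among named probe sets, the wild-type change of 1427451_A_AT, not called as deposited, was -0.060 after quantile normalization and -0.10 when scaled to the hybridization controls. Leaving out 1 array gave between -0.31 (wild-type day 4 replicate 2) and 0.45 (wild-type day 4 replicate 1). Where 1 array was left in a group, that array was assumed to vary like the other groups. The change of 1417868_A_AT, -0.18 for the mean of both genotypes and -0.10 in null as deposited, was 0.0042 and 0.059 after cyclic loess. The cause was not tested. The table has no detection calls, so differences at signals near 5.51 or below are limited by the unknown background correction.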
